A study of Mus musculus with 24 samples.

Results

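The keratins are the cytoplasmic intermediate filament proteins of epithelial cells, and the genes described here were every non-control probe of the array whose gene name was Krt followed by a number and at most 1 letter. This rule took 67 probes of 51 keratin genes out of 30119 named genes, left the keratin-associated proteins out, and used no measured value. Of these, 57 probes of 46 genes passed the filter on low signal applied to all probes, which 20944 genes passed in the whole series. Krt12, Krt26, Krt39, Krt40 and Krt75 did not pass and have no value below.

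The samples were 24 mammary tumors of female BALB/c mice that all received the carcinogen dimethylbenzanthracene (DMBA) by mouth, with no transgene or deletion in any group. LFD mice ate a low-fat diet and HFD mice a diet high in saturated animal fat from peripuberty on, LFD-HFD mice were moved from the low-fat to the high-fat diet in adulthood, and HFD-LFD mice were moved the other way. The labels class each tumor as early or late by its onset. The groups were LFD Late with 5 tumors, HFD Late with 6, LFD-HFD Late with 4, HFD-LFD Late with 3, HFD Early with 3 and HFD-LFD Early with 3, so that 6 early tumors stood against 18 late ones and neither LFD nor LFD-HFD had an early tumor. The labels name a separate tumor for each array but no animal, and the histological type of each tumor was not analysed here.

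A keratin filament is built from pairs of 1 type I and 1 type II keratin, and each epithelium makes its own set. In the mammary gland the luminal cells make the simple epithelium keratins Krt8, Krt18 and Krt19, and the basal or myoepithelial cells make Krt5 and Krt14. Squamous epithelium, as in epidermis, adds Krt1 and Krt10 above the basal layer, hyperproliferative epidermis makes Krt6a, Krt6b, Krt16 and Krt17, and a separate set of hard keratins builds the hair shaft.

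Because keratins share long stretches of sequence, the 60-base probes that carry the results are shown first. Among 2211 pairs of keratin probes, 7 pairs aligned over at least 45 bases with at least 70% of the bases identical. The closest pair of different genes was the Krt81 and Krt83 probes, of type II hair keratins, from the end of the central rod, the most conserved stretch of the family; in the lines below, capitals mark the 51 bases that both share.
Krt81: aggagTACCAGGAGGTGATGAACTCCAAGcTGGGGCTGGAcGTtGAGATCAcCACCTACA
Krt83: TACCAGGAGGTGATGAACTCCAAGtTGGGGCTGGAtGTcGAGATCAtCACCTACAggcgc
These probes were identical over 51 of 55 aligned bases (92.7%). The array placed the Krt81 probe at chr15:101290583-101290642 and the Krt83 probe at chr15:101263556-101263615, both on the minus strand of mm9. The current RefSeq name of the transcript behind the Krt83 probe is Krt87, and the file's name is kept here. RNA of the 2 genes cannot be told apart with certainty by these probes.

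A Krt5 probe and a Krt6b probe from just before the rod shared 38 of 47 aligned bases (80.9%), shown in capitals.
Krt5: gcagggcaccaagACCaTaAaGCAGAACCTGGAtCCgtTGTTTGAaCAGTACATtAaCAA
Krt6b: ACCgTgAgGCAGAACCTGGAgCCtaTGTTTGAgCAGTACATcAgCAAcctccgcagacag
They lie at chr15:101542056-101542115 and chr15:101509450-101509509 (mm9, minus strand), and each gene has another, brighter probe that stands for it in the results. The next 2 probes both belong to Krt13 and gave opposite differences, and the last 2 are the only probes of Krt23 and Krt19, which changed most clearly among the simple epithelium keratins.
Krt13, start of the rod: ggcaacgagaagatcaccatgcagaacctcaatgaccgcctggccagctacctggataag
Krt13, outside the conserved ends of the rod: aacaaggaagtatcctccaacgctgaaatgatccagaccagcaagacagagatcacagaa
Krt23: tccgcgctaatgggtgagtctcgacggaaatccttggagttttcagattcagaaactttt
Krt19: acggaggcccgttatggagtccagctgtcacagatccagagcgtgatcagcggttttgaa
On mm9 these are chr11:99982471-99982530, chr11:99980412-99980471, chr11:99339393-99339452 and chr11:100002392-100002451, all on the minus strand. Exon boundaries in this build were not used here.

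Each value below is the loess-normalized log2 ratio of tumor RNA over a pooled cell line reference for 1 array, so 0 means equal to the reference; a level says nothing about another gene's level. The labels place tumor RNA in Cy5 and the reference in Cy3, whereas the study's methods place the reference in cyanine 5, so the signs used here follow the labels and oppose the methods. Between the 17 arrays without dimmed rows, the median SD of the 27286 probes that passed was 0.41 in Cy5 and 0.16 in Cy3, and Cy5 varied more for 56 of the 57 keratin probes (median SD 1.66 against 0.23). On 7 arrays of 2 slides, bands of rows with dimmed Cy5 made up 20.6% to 24.8% of the spots and were treated as not measured, which left 35 or 36 of the 46 keratins on those arrays and gives some comparisons 20 or 21 tumors. No keratin spot was saturated, and the number of arrays limits the precision. Early HFD tumors filled 1 slide alone and early HFD-LFD tumors shared theirs with 1 late tumor, so onset and slide largely cannot be told apart. A scan session below is 1 scan date in the file headers.

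Keratins varied more between tumors than most genes did. The range over the tumors had a median of 5.46 log2 units for the 46 keratins, against 1.45 for the 20944 genes tested, and the median SD was 1.43 against 0.38. Tumors were thus far apart in keratins also within a label, as the heat map of all 46 genes shows.

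**Figure D1:**
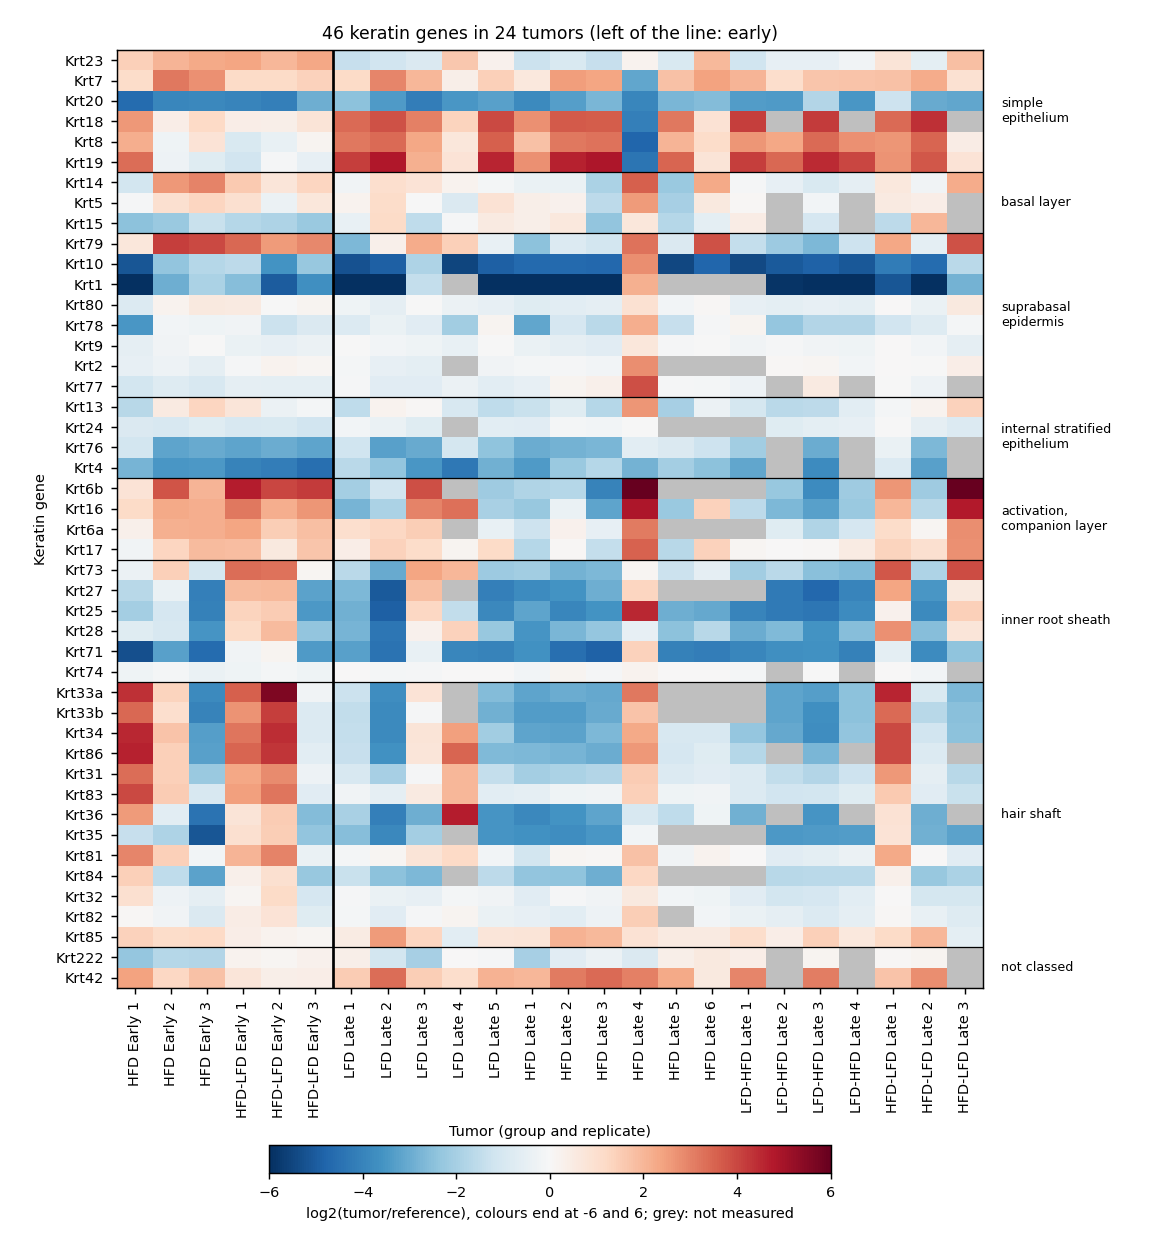
Heat map of the log2(tumor/reference) ratio of 46 keratin genes (rows, grouped by the epithelium they are known from) in 24 tumors (columns, by group and replicate, early tumors left of the line). Red is above the reference, blue below, grey not measured, and colours end at -6 and 6; HFD Late 4 carries dark blue Krt8, Krt18 and Krt19 beside red epidermal keratins, and the hair shaft rows are red in some early and some late tumors.

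Early tumors were first compared with late tumors, the 2-class question of the series. Of the 46 keratins, 5 were higher and 5 were lower in early tumors at an adjusted p under 0.05 (limma, Benjamini-Hochberg over all genes tested), and 36 did not pass. The higher ones were Krt23, Krt79, Krt83, Krt31 and Krt81, and the lower ones were Krt19, Krt15, Krt42, Krt24 and Krt74. Of all genes tested 23.2% were called (8.17% higher, 15.1% lower), so the share of keratins called, 10 of 46, was near the background in this fit. It was not so in every alternative: array weights called 31 of 46 keratins against 7830 of 20944 genes, and slide as a random block 2 keratins against 2567 genes. The median difference was 0.63 for the keratins and -0.07 for all genes tested, and 30 of the 46 keratin differences were above 0. With each array centred on its median in place of loess, the median over all genes moved to 0.30 and that of the keratins to 1.17, with 12 keratins higher and 2 lower, where 2795 of the 3595 genes called were higher. No keratin had early and late tumors that did not overlap. Of all genes 0.263% lay entirely higher and 0.683% entirely lower in early tumors, so 0 of 46 keratins is near the background.

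**Figure D2:**
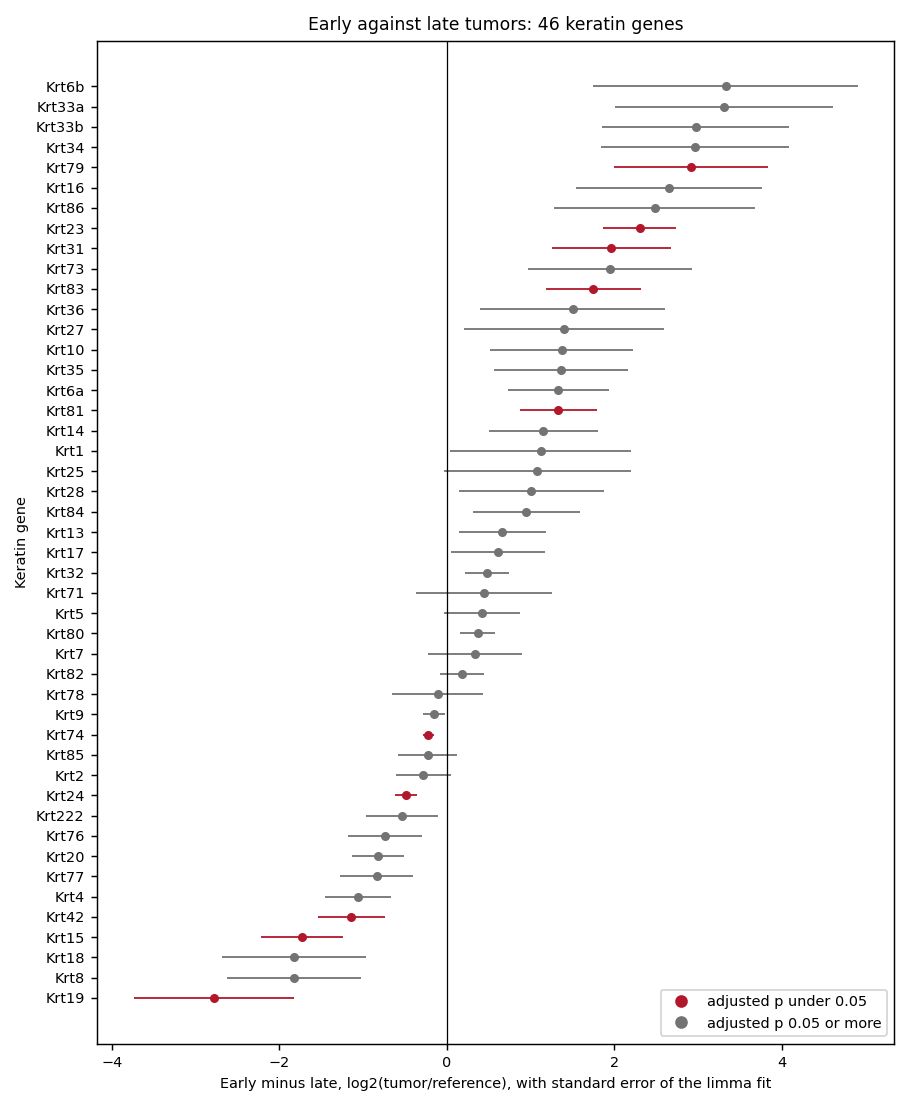
Difference between early and late tumors in log2(tumor/reference) for each of the 46 keratins, with the standard error of the limma fit; red marks an adjusted p under 0.05. Some of the hair shaft and hyperproliferation keratins take the upper end with wide errors (Krt6b at 3.33), together with Krt79 (2.91). Krt19, Krt8, Krt18 and Krt15 take the lower end (Krt19 at -2.78).

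Krt8 is the type II and Krt18 and Krt19 the type I keratins of luminal and other simple epithelia. Krt19 stood at 3.37, -0.29 and -0.73 in the 3 HFD Early tumors and at -1.16, -0.08 and -0.49 in the 3 HFD-LFD Early tumors. In the 18 late tumors its lowest value was -4.37, its median 3.61 and its highest 4.86. HFD Early 1 was therefore level with typical late tumors, and the other early tumors lay below every late tumor except HFD Late 4. Krt19 was lower in early tumors by a log2 difference of -2.78 (SE 0.96, adjusted p = 0.0388), a 6.88-fold difference. That call was lost when any of 12 tumors was left out in turn, with an adjusted p of at most 0.0854, and the difference was -3.21 (adjusted p = 0.002) without HFD Late 4. The call was also lost with median centring (-2.35, adjusted p = 0.109) and within scan session 1 (-2.16, adjusted p = 0.442), and in session 2 the difference was -4.20 (adjusted p = 0.0127).

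Krt8 read 2.16, -0.24 and 0.8 in HFD Early and -0.92, -0.44 and 0.17 in HFD-LFD Early tumors, against -4.74, 2.66 and 3.6 as lowest, median and highest of the 18 late tumors. Krt18 read 2.6, 0.41 and 1.2 in HFD Early and 0.39, 0.37 and 0.75 in HFD-LFD Early tumors, against -4.1, 3.42 and 4.36 in the 15 late tumors measured. All 6 early tumors lay below the late median for both genes and above HFD Late 4. Over all tumors neither passed the test, with differences of -1.83 (SE 0.80, adjusted p = 0.0961) for Krt8 and -1.82 (SE 0.86, adjusted p = 0.126, 21 tumors) for Krt18. Without HFD Late 4 both passed, at -2.24 (adjusted p = 0.00189) and -2.31 (adjusted p = 0.0018). Within scan session 1 the differences were -1.09 (adjusted p = 0.664) and -1.11 (adjusted p = 0.646), and within session 2 both passed, at -3.58 (adjusted p = 0.00839) and -3.48 (adjusted p = 0.0057). A dimmer probe of Krt8 gave a difference of -1.41 (adjusted p = 0.189 over 27286 probes).

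HFD Late 4 stood apart from the other tumors, and its values decide several of these calls. Beside the lowest Krt8, Krt18, Krt19 and Krt7 (-3.13), it had the highest Krt1 (2.15), Krt10 (2.81), Krt6b (8.13), Krt16 (4.87), Krt14 (3.6) and Krt5 (2.55) of all tumors. Its mean over 10 epithelial cell markers was -0.47, the lowest of the 24 tumors, where the others ranged from 0.72 to 2.09, and its means over 6 sebaceous gland markers (1.7) and 8 fibroblast markers (-0.08) were the highest. Without this tumor 20 of the 46 keratins were called, 12 higher and 8 lower, against 24.7% of all genes (8.91% higher, 15.8% lower), and 9 of the 10 called over all tumors were among them. The added ones were Krt6a, Krt6b, Krt8, Krt10, Krt16, Krt18, Krt20, Krt33a, Krt33b, Krt34 and Krt77, and Krt42 was lost. In a bulk tumor sample, fewer cells of a type and less RNA per cell cannot be told apart.

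Krt7, the other type II simple epithelium keratin, took no side. Its values were 1.1, 3.16 and 2.73 in HFD Early and 1.16, 1.13 and 1.39 in HFD-LFD Early tumors, within the late range of -3.13 to 2.95 (median 1.73) except for HFD Early 2. The difference of 0.34 (SE 0.56, adjusted p = 0.682) turned negative under 3 alternative settings given below. Krt20, known from intestinal and urothelial epithelium, had a difference of -0.82 (SE 0.31, adjusted p = 0.0591). With scan session as a fixed block it was called lower, at -1.12 (SE 0.29, adjusted p = 0.00752).

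Krt23, a type I keratin found in some simple and glandular epithelia, gave the clearest difference of the family. It read 1.43, 2.03 and 2.28 in HFD Early and 2.36, 1.99 and 2.3 in HFD-LFD Early tumors. In the 18 late tumors it ran from -1.37 over a median of -0.55 to 1.96. Every early tumor was above the late median, and 3 of 18 late tumors (LFD Late 4, HFD Late 6 and HFD-LFD Late 3) exceeded the lowest early one. The difference was 2.30 (SE 0.44, adjusted p = 0.00133), 4.92-fold. It kept its call without each of the 24 tumors in turn (adjusted p between 0.000373 and 0.00485). It also passed within scan session 1 (2.72, adjusted p = 0.0124) and within scan session 2 (2.33, adjusted p = 0.0234), which hold early and late tumors with the same scan date. In session 1 the early tumors were on another slide than the late ones. Session 1 held HFD Early, HFD Late and LFD Late tumors, and session 2 HFD-LFD Early, HFD-LFD Late and LFD-HFD Late tumors. The 2 sessions thus also differ in diet. With slide as a random block Krt23 (adjusted p = 0.009) and Krt24 (adjusted p = 0.0408) were the 2 keratins called. With slide as a fixed block, onset rests on the 1 slide that held both, with 3 HFD-LFD Early tumors and 1 LFD-HFD Late tumor. In that fit Krt23 differed by 2.73, which 1 late tumor cannot test.

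Of the 3 basal layer keratins tested, Krt15 was lower and Krt5 and Krt14 did not pass, with a median difference of 0.42. Of all genes 15.1% were lower, and 3 genes are too few to set against that share. Krt15, a type I keratin of basal cells and of hair follicle stem cells, read -2.46, -2.23 and -1.34 in HFD Early and -1.7, -1.87 and -2.21 in HFD-LFD Early tumors. The 15 late tumors measured spanned -2.36 to 1.99 with a median of -0.08, and 4 of them were below the highest early tumor. The difference was -1.73 (SE 0.49, adjusted p = 0.016), 3.32-fold, and it was called without each tumor in turn (adjusted p at most 0.0415). Within the scan sessions it was -1.89 (adjusted p = 0.104) and -1.72 (adjusted p = 0.267), and the call was lost with median centring (-1.27, adjusted p = 0.148).

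Krt5, the type II partner in basal cells, stood at -0.07, 0.98 and 1.28 in HFD Early and 0.95, -0.36 and 0.68 in HFD-LFD Early tumors, against -1.97 to 2.55 (median 0.24) in 15 late tumors. Krt14, its type I partner, stood at -1.12, 2.6 and 2.98 in HFD Early and 1.55, 0.73 and 1.28 in HFD-LFD Early tumors, against -2.21 to 3.6 (median -0.16) in 18 late tumors. Both ranges of early tumors lay inside the late range. The differences were 0.42 (SE 0.45, adjusted p = 0.515; -0.07 from the other Krt5 probe) and 1.15 (SE 0.65, adjusted p = 0.193). RNA of other markers of the contractile myoepithelial cells, which make Krt5 and Krt14, went another way. Of 6 such markers 5 were lower in early tumors, against 15.1% of all genes, and none higher, with a median of -1.84. Among them, smooth muscle myosin Myh11 differed by -2.99 (adjusted p = 0.00336) and transgelin Tagln by -1.68 (adjusted p = 0.0294). The mean of the 6 markers ran from -1.68 to -0.01 in early and from -1.4 to 2.84 (median 1.72) in late tumors.

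**Figure D3:**
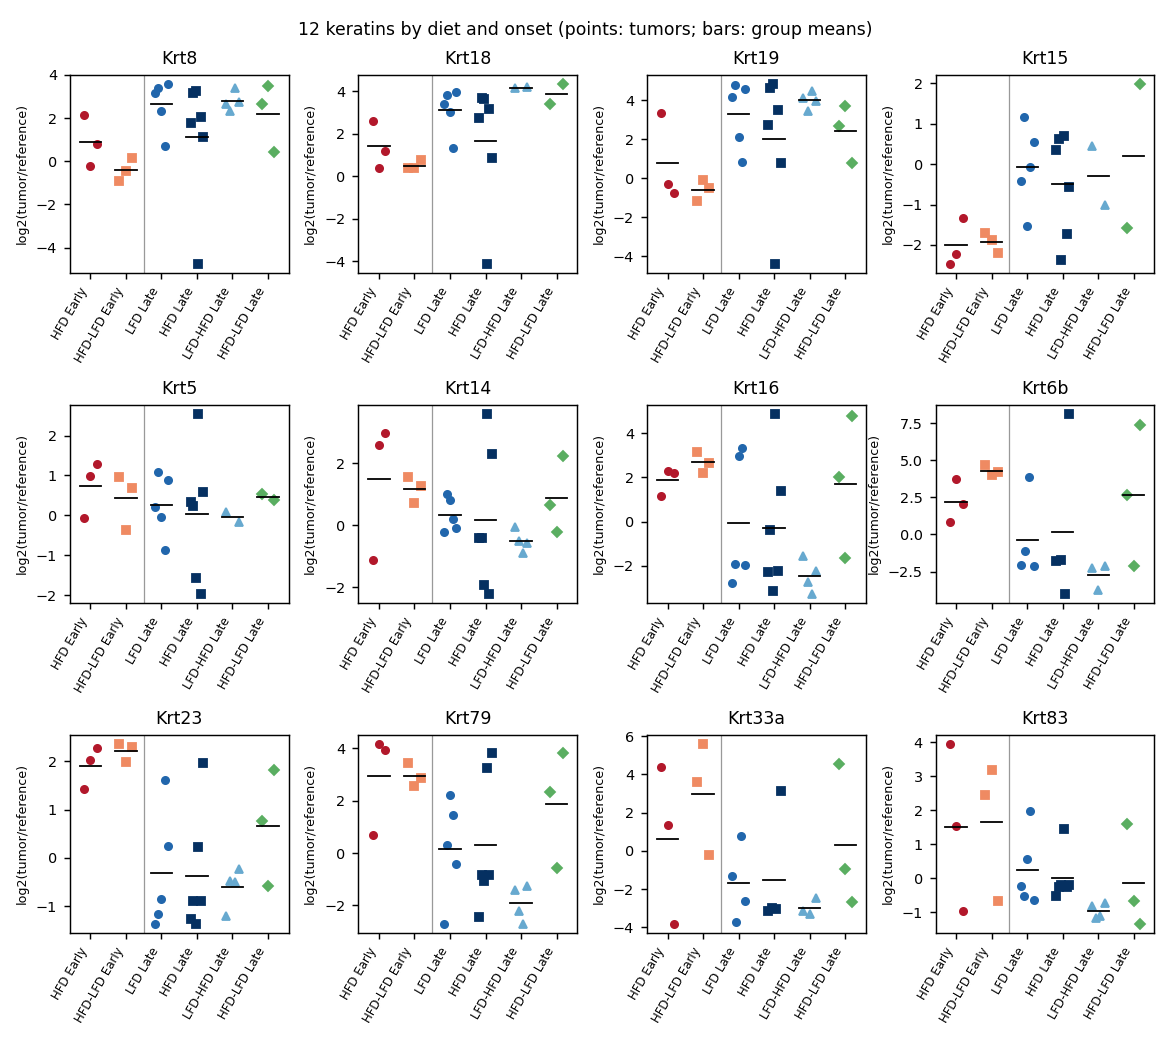
The log2(tumor/reference) ratio of 12 keratins in the 6 groups of diet and onset; points are tumors, bars group means, and the grey line separates early from late groups. Early Krt23 points sit between 1.43 and 2.36, and HFD Late contains the tumor with the lowest Krt8 (-4.74) and the highest Krt6b (8.13).

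The keratins of hyperproliferative epidermis and the companion layer of the hair follicle were above the reference in most early tumors. Krt16, a type I keratin of activated keratinocytes, read 1.14, 2.29 and 2.19 in HFD Early and 3.16, 2.2 and 2.66 in HFD-LFD Early tumors. Its 18 late values ran from -3.26 over a median of -1.79 to 4.87, and 6 of them were above the lowest early tumor. Krt6b, a type II keratin of the same cells, read 0.84, 3.75 and 2.02 in HFD Early and 4.71, 4.0 and 4.18 in HFD-LFD Early tumors, against -4.0 to 8.13 (median -1.92) in 14 late tumors. The late tumors thus split into a low majority and a few, among them HFD Late 4, HFD-LFD Late 3 and LFD Late 3, at or above the early level. Of the 4 keratins tested none passed over all tumors: the differences were 3.33 for Krt6b (SE 1.58, adjusted p = 0.127, 20 tumors), 2.65 for Krt16 (SE 1.11, adjusted p = 0.0815), 1.33 for Krt6a (SE 0.60, adjusted p = 0.111, 20 tumors) and 0.61 for Krt17 (SE 0.56, adjusted p = 0.447). At an unadjusted p under 0.05, 3 of the 4 passed, against 37.8% of all genes.

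Krt6a, the nearest relative of Krt6b, read 0.31, 2.14 and 2.17 in HFD Early and 2.39, 1.47 and 1.82 in HFD-LFD Early tumors, against -1.82 to 3.12 (median 0.18) in 14 late tumors. Krt17, a type I keratin of the companion layer and of wounds, read -0.22, 1.27 and 1.88 in HFD Early and 1.86, 0.6 and 1.65 in HFD-LFD Early tumors, against -1.69 to 3.52 (median 0.45) in 18 late tumors. For Krt6a every early tumor was above the late median, and for Krt17 5 of 6 were. The mean over the 4 keratins was 0.52 to 3.03 in early and -2.27 to 4.91 in late tumors.

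Among the 8 keratins of the upper epidermis, Krt79 was higher in early tumors, none was lower, and the median difference was 0.13; 1 of 8 is near the 8.17% of all genes that were higher. Krt79, a type II keratin of the hair follicle opening and sebaceous duct, read 0.69, 4.17 and 3.94 in HFD Early and 3.43, 2.57 and 2.86 in HFD-LFD Early tumors. The late tumors ran from -2.71 over -0.7 to 3.83, with 6 of 18 above the lowest early one. The difference of 2.91 (SE 0.92, adjusted p = 0.0264), 7.5-fold, lost its call without HFD-LFD Early 1 (adjusted p = 0.0516), HFD Early 2 (adjusted p = 0.0715) or HFD Early 3 (adjusted p = 0.0637). Within the scan sessions it was 3.15 (adjusted p = 0.129) and 3.27 (adjusted p = 0.144). Of 6 sebaceous gland markers none was higher in early tumors and 2 were lower (Fads3 at -0.80 and Cidea at -1.26), against 8.17% and 15.1% of all genes.

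Krt1 and Krt10, the pair of differentiating epidermis, were far below the reference in most tumors. Krt10 read -5.15, -2.35 and -1.72 in HFD Early and -1.57, -3.58 and -2.27 in HFD-LFD Early tumors, against -5.5, -4.79 and 2.81 as lowest, median and highest of 18 late tumors. Krt1 read -6.85, -2.95 and -1.91 in HFD Early and -2.54, -4.99 and -3.67 in HFD-LFD Early tumors, against -6.38, -6.15 and 2.15 in 14 late tumors. HFD Late 4 was the only tumor above 0 for either, and LFD Late 3 (-1.41 for Krt1, -1.85 for Krt10) and HFD-LFD Late 3 (-2.84 and -1.64) followed among late tumors. The differences were 1.37 for Krt10 (SE 0.85, adjusted p = 0.243) and 1.12 for Krt1 (SE 1.08, adjusted p = 0.465, 20 tumors), and without HFD Late 4 Krt10 passed at 1.78 (adjusted p = 0.0188). The remaining 5 of the list, Krt2, Krt9, Krt77, Krt78 and Krt80, had differences between -0.84 and 0.37, none called.

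Of the keratins of internal stratified epithelia, such as esophagus and cornea, 1 of 4 was lower, near the 15.1% of all genes at this size, and none higher, with a median of -0.62. Krt24, a type I keratin, was lower in early tumors by a small amount, -0.49 (SE 0.13, adjusted p = 0.01, 20 tumors), 1.41-fold. It read -0.89, -0.97 and -0.73 in HFD Early and -0.95, -0.92 and -1.14 in HFD-LFD Early tumors, and its 14 late values lay between -0.8 and -0.02, and 3 of the late tumors were below the highest early one. The probe was dim: it was well above background in tumor RNA on 4 of 6 early and 13 of 14 late arrays. Krt4, the type II partner of Krt13, read -2.8, -3.51 and -3.46 in HFD Early and -4.01, -4.16 and -4.51 in HFD-LFD Early tumors, against -4.27 to -0.81 (median -2.83) in 15 late tumors, a difference of -1.06 (SE 0.39, adjusted p = 0.0515). Krt42, a type I keratin of the nail unit that is in none of these lists, read 2.43, 1.26 and 1.78 in HFD Early and 0.74, 0.33 and 0.39 in HFD-LFD Early tumors, against 0.59 to 3.38 (median 2.28) in 15 late tumors. Its difference was -1.14 (SE 0.40, adjusted p = 0.0434), called in 11 of the 24 fits without 1 tumor (adjusted p at most 0.104). The call was lost with median centring (-0.66, adjusted p = 0.345) and with slide as a random block (-1.33, adjusted p = 0.0684). The Krt42 value rests on 1 probe, which was identical to a Krt28 probe over 41 of 58 aligned bases (70.7%). A second Krt42 probe, well above background in tumor RNA on 2 of 21 arrays, did not pass the signal filter.

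The hair keratins divided the early tumors themselves. Of 13 hair shaft keratins tested, 3 were higher in early tumors, none was lower, 12 differences were above 0 and the median was 1.5; of all genes 8.17% were higher, 15.1% lower and 8865 of 20944 differences were above 0. The 1 below 0 was that of Krt85 (-0.23), whose other 2 probes, which the array placed apart from each other, gave 1.91 and 0.77. Krt31, a type I cortex keratin, read 3.36, 1.45 and -2.25 in HFD Early and 2.34, 2.85 and -0.3 in HFD-LFD Early tumors, against -2.03, -1.09 and 2.6 as lowest, median and highest of 18 late tumors. Krt81, a type II cortex keratin, read 2.95, 1.45 and -0.17 in HFD Early and 2.04, 2.97 and -0.39 in HFD-LFD Early tumors, against -1.12, 0.03 and 2.26. Krt83, whose probe is nearly that of Krt81, read 3.95, 1.53 and -0.98 in HFD Early and 2.45, 3.19 and -0.67 in HFD-LFD Early tumors, against -1.35, -0.39 and 1.98. For all 3 genes HFD Early 3 and HFD-LFD Early 3 were below 0 and the other 4 early tumors above it.

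The differences were 1.96 for Krt31 (SE 0.71, adjusted p = 0.0482), 1.33 for Krt81 (SE 0.46, adjusted p = 0.041) and 1.75 for Krt83 (SE 0.57, adjusted p = 0.0313). Single tumors decided them: Krt31 kept its call in 6 and Krt81 in 9 of the 24 fits without 1 tumor, with an adjusted p of up to 0.144 and 0.129. Krt83 lost it without HFD Early 1 (adjusted p = 0.115), HFD-LFD Early 1 (0.0742), HFD-LFD Early 2 (0.0879) or HFD Early 2 (0.0608). With scan session as a fixed block all 3 calls were lost (adjusted p = 0.0968 for Krt31, 0.109 for Krt81 and 0.0678 for Krt83). Slide as a random block also lost all 3, with adjusted p-values of 0.113, 0.105 and 0.0849 in the same order. Median centring kept all 3 (adjusted p = 0.0121, 0.00737 and 0.0169). Larger differences of Krt33a (3.31, SE 1.30), Krt34 (2.96, SE 1.12) and Krt33b (2.97, SE 1.12) did not pass, with adjusted p-values of 0.0693, 0.0556 and 0.0589. Median centring and array weights called all 3. With median centring they were 4.15, 3.7 and 3.82 (adjusted p = 0.0279, 0.0245 and 0.019), and Krt35 passed as well (2.12, adjusted p = 0.0418). Under that centring 2795 of the 3595 genes called were higher. In late tumors the Krt33a probe was well above background on 9 of 14 arrays and that of Krt33b on 12 of 14, so part of the late values behind these differences were near background.

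The mean over the hair shaft keratins measured put 7 tumors above 0: HFD-LFD Early 2 (2.59), HFD Early 1 (2.48), HFD-LFD Late 1 (1.97), HFD-LFD Early 1 (1.75), LFD Late 4 (1.7), HFD Late 4 (1.34) and HFD Early 2 (0.5). In HFD-LFD Early 1, HFD-LFD Early 2 and HFD-LFD Late 1, 13 of 13 hair shaft keratins were above the reference. HFD Early 3 had the lowest mean of the 24 tumors at -2.37, with 1 of 13 above 0, Krt85 at 1.19, whose other 2 probes read -4.32 and -0.23 there. Means above 0 thus occurred in early and in late tumors and in 3 of the 4 diets, while the 4 LFD-HFD tumors had means between -1.99 and -0.95.

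Of the 6 inner root sheath keratins tested, which line the growing hair, none was higher and 1, Krt74, was lower, near the 15.1% of all genes, and the median difference was 1.05. The Krt74 difference was -0.22 (SE 0.07, adjusted p = 0.0258, 21 tumors), with -0.28, -0.12 and -0.39 in HFD Early, -0.27, -0.13 and -0.24 in HFD-LFD Early and -0.18 to 0.21 in late tumors. Its probe was near background, well above it in tumor RNA on 11 of 21 arrays, and the call was lost without HFD Early 1 (adjusted p = 0.053) or HFD Early 3 (adjusted p = 0.0716). The 5 others, Krt25, Krt27, Krt28, Krt71 and Krt73, had differences between 0.44 and 1.95, none called. Of the genes outside the rule that RefSeq now names as keratins, Krt90, listed on the array as a Riken clone, was higher in early tumors by 3.11 (SE 0.87, adjusted p = 0.0137; early 2.49 to 5.64, late -1.15 to 5.43). Krt72, listed as a pseudogene, was higher by 1.41 (SE 0.42, adjusted p = 0.0207), and Krt88 differed by -0.05.

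Probes of the same gene differed in direction for Krt13, Krt85 and Krt5, and in size for others such as Krt6b and Krt2. The Krt13 probe at the start of the rod, printed above, gave a difference of 0.66 (SE 0.52, adjusted p = 0.366) and the other Krt13 probe -1.08 (SE 0.42, adjusted p = 0.0636), both over 27286 probes. The first read -1.65, 0.52 and 1.31 in HFD Early and 0.72, -0.36 and -0.12 in HFD-LFD Early tumors against a late median of -0.85, and the second lay between -6.08 and -3.93 in early tumors against a late median of -3.76. The direction of Krt13 therefore rests on the probe, and the mean of both gave -0.21. Within HFD the second probe was called lower, at -2.0 (SE 0.62, adjusted p = 0.0323), and the first gave 0.63 (adjusted p = 0.598). For Krt85, the probe that stands for the gene gave -0.23 (SE 0.35, adjusted p = 0.674), another 1.91 (SE 0.96, adjusted p = 0.151) and another 0.77 (SE 0.20, adjusted p = 0.00923). The second was placed at chr15:101261695-101261754, beside the Krt83 probe, and the third at chr15:101346117-101346176 (mm9, minus strand), and whether all 3 measure Krt85 was not tested. The direction and the call under that name rest on the probe. The Krt5 probe printed above gave -0.07 (SE 0.40, adjusted p = 0.921) against 0.42 from the probe that stands for the gene, both within their errors of 0. The Krt2 probes gave -0.28 and -1.09 (adjusted p = 0.558 and 0.208). For Krt6b the brighter probe gave 3.33 and the probe printed above 1.25 (adjusted p = 0.234).

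**Figure D4:**
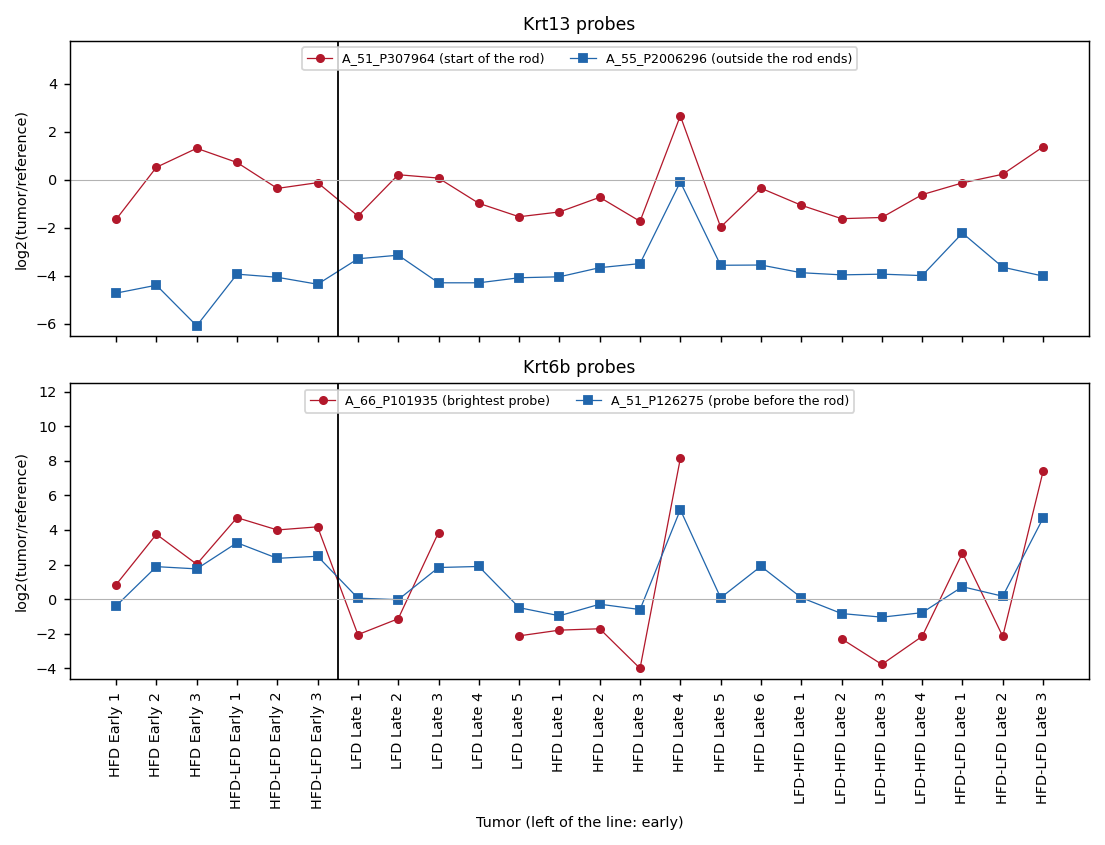
The log2(tumor/reference) ratio of each probe of Krt13 and Krt6b in the 24 tumors (early tumors left of the line); each colour is 1 probe, and gaps are arrays without a value. Early minus late is 0.66 and -1.08 for the Krt13 probes, and 3.33 and 1.25 for the Krt6b probes, the brighter of which has values in 20 tumors.

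Genes of the structures that keratins are tied to were called at a share near that of all genes, 3 of 14 and 4 of 13 against 23.2%. Of 14 desmosome genes, the junctions that anchor keratin filaments, 2 were higher and 1 lower in early tumors (median 0.41): desmoglein Dsg3 by 1.15 (SE 0.34, adjusted p = 0.0197) and desmocollin Dsc2 by 1.19 (SE 0.42, adjusted p = 0.0444), and plakophilin Pkp2 differed by -1.13 (SE 0.41, adjusted p = 0.049). Of 13 hemidesmosome and cytolinker genes, 2 were higher and 2 lower (median 0.18). The integrin chains of the hemidesmosome went opposite ways: Itga6 differed by -0.86 (SE 0.16, adjusted p = 0.00119) and Itgb4 by 0.78 (SE 0.23, adjusted p = 0.0216). Cd151, which binds Itga6, was also lower, at -0.56 (adjusted p = 0.0201).

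Of 16 transcription factors known to act on keratin genes or in keratinocytes, 5 were higher and 1 lower (median 0.46), against 8.17% and 15.1% of all genes. Gata3, the luminal factor, was lower in early tumors (mean 0.72) than in late ones (mean 2.8), a difference of -2.08 (SE 0.32, adjusted p = 0.000465). Foxn1, which drives hair keratin genes, was higher by 0.99 (SE 0.28, adjusted p = 0.017). Other regulators of the hair follicle in the list did not pass: Hoxc13 differed by -0.18 (adjusted p = 0.62), Msx2 by -0.08 (adjusted p = 0.9) and Lef1 by 0.44 (adjusted p = 0.532). Klf4, a factor of epidermal differentiation, was higher by 2.09 (SE 0.62, adjusted p = 0.022), and Grhl3, another, by 2.56 (SE 0.74, adjusted p = 0.0196). Of the 4 type III intermediate filament genes, the filaments of other cell types, 2 were lower, against 15.1% of all genes, and none higher (median -0.93): Gfap differed by -1.42 (adjusted p = 0.00705) and Prph by -1.23 (adjusted p = 0.00708). Vimentin, the filament of mesenchymal cells, differed by -0.16 (SE 0.32, adjusted p = 0.739).

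Markers of other cell types were followed beside the keratins, and their counts are to be read against the 8.17% of all genes that were higher and the 15.1% that were lower. None of 10 epithelial cell markers was called (median 0.04, smallest p for Cldn7 at -0.83 and Esrp1 at 0.22), with means of 0.77 to 1.62 in early and -0.47 to 2.09 in late tumors. Of 7 adipocyte markers 2 were lower (Lipe at -0.86 and Plin1 at -1.38, median -0.96). Of 5 melanocyte markers 3 were lower (first Tyr at -0.39 and Pmel at -0.99, median -0.74), and 1, Sox10, had a difference above 0 (0.80). Of 8 fibroblast markers 1 was lower (Dcn at -2.55, adjusted p = 0.00211), with a median of -0.25 and 3 differences above 0. No marker of these lists was called higher. None of 8 skeletal muscle markers (smallest p for Mylpf at -1.01 and Myh2 at -1.65) or 7 macrophage markers (Marco at -0.95 and Csf1r at -0.42) was called. The part of these cells in the keratin differences was not tested.

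The diet comparisons gave few keratins. HFD against LFD, with 9 tumors of which 3 were early against 5 late ones, called 0 of 46 keratins at an adjusted p under 0.05 and 0 at an unadjusted p under 0.05 (limma), against 0% and 3.75% of all genes. The smallest p belonged to Krt15, with a difference of -0.94 (SE 0.63), and to Krt8, with -1.61 (SE 1.08). Late tumors compared across the 4 diets called 0 keratins, against 1.07% of all genes, and 1 at an unadjusted p under 0.05, against 18.2%. That 1 was Krt73, an inner root sheath keratin, with group means relative to LFD Late of -1.05 in HFD, -1.72 in LFD-HFD and 2.42 in HFD-LFD (adjusted p = 0.229, limma F test).

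Onset was also compared at a fixed diet. Within HFD, 2 keratins were called against 16.2% of all genes (6.61% higher, 9.64% lower), and 6 at an unadjusted p under 0.05 against 32.9%: Krt23 was higher by 2.29 (SE 0.67, adjusted p = 0.0267) and Krt24 lower, at -0.61 (SE 0.19, adjusted p = 0.043). Krt23 in HFD Late ran from -1.37 to 1.96 with a median of -0.9, below all 3 HFD Early tumors except for HFD Late 6. Both calls rested on few tumors: Krt23 lost its call without HFD Early 1 (adjusted p = 0.0518), HFD Early 2 (0.0909), HFD Early 3 (0.101) or HFD Late 3 (0.0503), and Krt24 lost its call in 12 of the 24 fits without 1 tumor (adjusted p at most 0.14). Within HFD-LFD 0 were called (limma) against 2.79% of all genes (1.37% higher, 1.42% lower), and 6 at an unadjusted p under 0.05 against 22.5%, with the smallest p for Krt4 at -2.19 (SE 0.69, adjusted p = 0.0874). Krt23, which was not among those 6, differed by 1.56 (SE 0.77, adjusted p = 0.238). The test of the difference between these onset changes called 0 keratins, also at an unadjusted p under 0.05 (limma), against 0% and 9.22% of all genes. For Krt18 the HFD-LFD change minus the HFD change was -3.13 (SE 2.01, adjusted p = 0.654), an error too wide to place the 2 diets apart or together.

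Of 7 pairs of keratins known as filament partners, 6 were correlated across tumors. No share over all keratin pairs was computed, so whether partners correlated more than other keratins was not tested. Pearson and Spearman correlations were computed for these 7 and for 2 pairs of a basal with a luminal keratin, 9 in all, with 100000 two-sided permutations and Benjamini-Hochberg adjustment over the 9. Krt8 and Krt18 had r = 0.98 (rho = 0.95, 21 tumors) and Krt8 and Krt19 r = 0.96 (rho = 0.92, 24 tumors), both at a permutation p of 1e-05, the smallest that these permutations can give, and an adjusted p of 1.8e-05. Krt5 and Krt14 had r = 0.82 (rho = 0.76, 21 tumors), Krt6a and Krt16 r = 0.88 (rho = 0.9, 20 tumors) and Krt1 and Krt10 r = 0.98 (rho = 0.81, 20 tumors), each also at an adjusted permutation p of 1.8e-05. Without the 2 tumors farthest from the median of the first gene these r values were 0.96, 0.94, 0.7, 0.87 and 0.98. Krt6b and Krt17 had r = 0.77 (rho = 0.74, adjusted permutation p = 7.5e-05). Krt4 and Krt13, partners in esophagus, showed no such relation (r = -0.23, rho = -0.33, adjusted permutation p = 0.322), and the Krt13 value is that of its rod-start probe.

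Within scan sessions 1 and 2 the 6 pairs other than Krt4 and Krt13 kept a positive r, and not every one passed. In session 1, with 11 tumors, r was 1.0 for Krt8 with Krt18, 0.96 for Krt8 with Krt19 and 0.86 for Krt5 with Krt14; in session 2, with 6 tumors, it was 0.99, 0.98 and 0.63, the last at an adjusted exact permutation p of 0.236. Krt6b and Krt17 had r = 0.77 (adjusted permutation p = 0.00683) and rho = 0.61 (adjusted permutation p = 0.0777) in session 1. In session 2 their r was 0.73 (adjusted exact permutation p = 0.183). In the 18 late tumors alone r was 0.98, 0.97 and 0.84 for the first 3 pairs and 0.86 for Krt6a with Krt16. There Krt1 with Krt10 had r = 0.98 but rho = 0.51 (adjusted permutation p of rho 0.095), and Krt6b with Krt17 had r = 0.81, which fell to 0.52 without the 2 farthest tumors.

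Basal against luminal keratins ran opposite in part. Krt14 and Krt18 had r = -0.74 (rho = -0.63, adjusted permutation p = 0.000116, 21 tumors), -0.64 without the 2 farthest tumors and -0.66 without HFD Late 4; among late tumors r was -0.74, but -0.1 without the 2 farthest, so the late relation rests on those. Krt5 and Krt8 had r = -0.48 (rho = -0.21, adjusted permutation p = 0.0392), which fell to -0.19 without the 2 farthest tumors and to -0.16 without HFD Late 4, and so rests on these tumors.

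**Figure D5:**
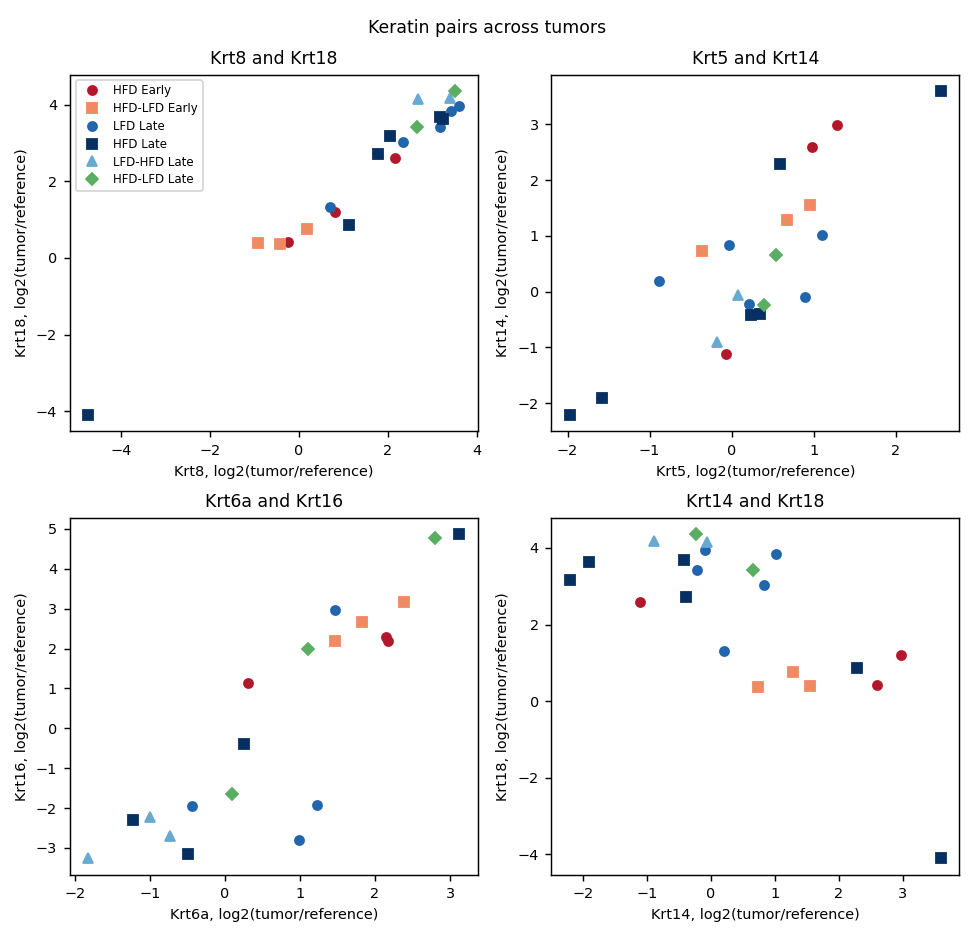
Log2(tumor/reference) of 4 keratin pairs, 1 point per tumor with colour and shape for its group. Krt8 with Krt18 (r = 0.98), Krt5 with Krt14 (r = 0.82) and Krt6a with Krt16 (r = 0.88) rise together, Krt14 with Krt18 (r = -0.74) falls, and HFD Late 4 lies at the far end of each plot.

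Promoters of 3 type I hair shaft keratins are shown with that of Krt23 for contrast: the 250 bases before the start of Krt33b, Krt34, Krt31 and Krt23, from RefSeq on GRCm38.p6, 5′ to 3′ along each gene. Capitals mark TATAAA, the letters of a TATA box.
Krt33b: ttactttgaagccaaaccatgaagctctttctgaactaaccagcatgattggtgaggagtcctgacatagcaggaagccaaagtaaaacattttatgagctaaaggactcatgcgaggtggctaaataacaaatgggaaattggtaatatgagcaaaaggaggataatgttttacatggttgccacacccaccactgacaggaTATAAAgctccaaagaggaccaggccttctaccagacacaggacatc
Krt34: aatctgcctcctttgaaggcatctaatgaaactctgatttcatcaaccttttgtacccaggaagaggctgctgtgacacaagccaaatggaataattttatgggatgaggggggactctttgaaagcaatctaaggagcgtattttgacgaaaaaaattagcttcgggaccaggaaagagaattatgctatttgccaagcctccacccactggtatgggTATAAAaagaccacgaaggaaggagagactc
Krt31: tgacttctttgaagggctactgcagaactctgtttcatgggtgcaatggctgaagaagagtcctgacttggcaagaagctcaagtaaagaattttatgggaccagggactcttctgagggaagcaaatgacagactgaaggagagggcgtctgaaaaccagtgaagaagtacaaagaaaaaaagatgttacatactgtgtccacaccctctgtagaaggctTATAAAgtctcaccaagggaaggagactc
Krt23: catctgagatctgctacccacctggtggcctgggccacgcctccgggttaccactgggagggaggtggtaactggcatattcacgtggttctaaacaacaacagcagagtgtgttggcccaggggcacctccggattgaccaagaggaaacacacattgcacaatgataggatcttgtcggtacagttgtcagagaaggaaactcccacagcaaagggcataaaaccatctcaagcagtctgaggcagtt
They are chr11:100029869-100030118, chr11:100041555-100041804, chr11:100050552-100050801 and chr11:99493121-99493370, all on the minus strand, and the 3 hair keratin genes are neighbours. TATAAA began 47, 31 and 29 bases before the start of Krt33b, Krt34 and Krt31, and did not occur in the Krt23 window. Only exact matches were searched for, so near matches, as in the Krt23 window, were not counted.

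The table of promoters held 35 entries for 34 of the keratin genes. TATAAA, searched on both strands, was in 16 of the 35 (45.7%), against 12.4% of all 32851 promoters of the same length. GGGCGG, the core letters of a GC box, was in 2 (5.71%), against 32.7% of all promoters. TGANTCA, the letters of an AP-1 site, was in 2 (5.71%), both of them entries of Krt13, against 6.75%. A match of letters is not a bound site.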

How the data were processed

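RNA of 24 tumors was hybridised with a pooled mouse cell line reference on 2-color Agilent arrays, 1 array per tumor. The authors deposited Feature Extraction output (version 11.0.1.1 in the file headers) with a mean and a background intensity per spot and channel, in linear units, and the software's log10 ratio, which served only as an alternative. The study's methods name a filter on spots with an intensity over 10 in at least 80% of samples, Lowess normalization, imputation from nearest neighbours and limma.

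Here the intensities were background-corrected by normexp (offset 50) without flagged spots, and bands of 10 rows whose Cy5 fell by more than 0.5 log2 units (7 arrays on 2 of 7 slides) were set missing. Loess was run within arrays, spots of a probe were averaged, and a probe stayed in (27286 of 39429) if both its channels exceeded a background-subtracted signal of 10 on 80% or more of the arrays that measured it, with no imputation. The brightest probe stood for a gene. Names came from RefSeq through the accession for 27234 probes, the symbol for 3576 and an older symbol for 565, and 8054 kept the file's name. Groups came from the labels. Each comparison was fitted with limma 3.58.1 in R 4.3.3 (lmFit, eBayes) and Benjamini-Hochberg adjustment over 20944 genes, with a threshold of 0.05. Early against late, the within-diet contrasts and their difference were also run on simulated data. HFD against LFD and the late diets were not. Within-diet contrasts, their difference and the late diets used 6 group means over 24 arrays. The p-values measure the spread between these tumors only. Sequences came from the files (mm9 positions) and RefSeq (GRCm38.p6), and the sequence of 1 probe and its comparison with others are not reported here. Values by tumor are given for 16 keratins fixed in the design and those called, other keratins by ranges, and other lists by counts and the 2 members with the smallest p, with a few more named after their values were seen. The keratins, lists and tests were chosen with earlier results of these data known.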

Additional observations from a re-analysis of the deposited data

Results flagged for a closer look

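Among 59 groups of 4 to 10 tumors tested for 23 keratins, 11 held a highest or lowest tumor farther from the rest than the 95% limit of Dixon's test allows. About 1 in 20 groups passes that limit by chance.

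HFD Late 4 accounted for 7 of the 11. Its Krt8 (-4.74, others 1.12 to 3.24), Krt18 (-4.1, others 0.86 to 3.67) and Krt7 (-3.13, others 0.62 to 2.51) lay below the other HFD Late tumors. Its Krt1 (2.15, others -6.38 to -6.14), Krt10 (2.81, others -5.46 to -4.65), Krt13 (2.66, others -1.97 to -0.35) and Krt83 (1.44, others -0.52 to -0.2) lay above them.

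LFD Late 3 accounted for 3, with Krt1 at -1.41 (others -6.25 to -6.14), Krt10 at -1.85 (others -5.5 to -4.88) and Krt6b at 3.85 (others -2.12 to -1.13), each above the rest of its group. The last was Krt17 in LFD-HFD Late 4, at 0.49 against 0.04 to 0.11, a small distance in a group with little spread.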

How the results depend on the processing

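Early against late tumors called 10 keratins. Some alternatives moved this count by over 1.5 times. It was 20 at an unadjusted p under 0.05, 6 with dimmed rows kept (also 6 with imputation added), 5 without background correction and 4 with the scanner software's log ratio. It was 31 with array weights, 2 with slide as a random block, 6 without the slides that held dimmed rows, and 1 and 6 within scan sessions 1 and 2. Slide as a fixed block compared 3 HFD-LFD Early tumors with 1 LFD-HFD Late tumor on 1 slide, so its counts are left out. Smaller moves gave 14 with median centring, 12 with imputation, 11 from group means, 8 without the signal filter, 8 with scan session as a block and 7 from the tumor channel alone. It ranged from 4 to 20 when 1 tumor was left out, lowest without HFD-LFD Early 1 or HFD Early 2 and highest without HFD Late 4. The split of higher to lower was 5 to 5, but 12 to 2 with median centring, 5 to 2 from the tumor channel alone, 22 to 9 with array weights, 2 to 6 with scan session as a block and 1 to 5 within session 2. Median centring moved the median of all genes from -0.07 to 0.30 and the share of higher genes among all called from 35.2% to 77.7%. All genes called were 4866 of 20944, and up to 7918 over these alternatives. They were 7830 with array weights, 2567 with slide as a random block, 3595 with median centring and 3310 without background correction. With the scanner's log ratio they were 2949, and within sessions 1 and 2 they were 1496 and 1981.

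Within HFD the count of 2 became 6 at an unadjusted p, 1 with the scanner's log ratio, the tumor channel alone or the dimmed slides left out, 0 with median centring or a random slide block, 4 with imputation and 23 with array weights, and 0 to 4 without 1 tumor. Within HFD-LFD the count of 0 became 6 at an unadjusted p, 5 with median centring, 3 with array weights and 1 without the dimmed slides, and 0 to 1 without 1 tumor. The whole array moved with these counts. Over the alternatives, all genes called ranged from 1228 to 8590 within HFD, against 3403, and from 1 to 7290 within HFD-LFD, against 585. Late tumors across diets had 0, or 1 at an unadjusted p. HFD against LFD and the difference between onset changes stayed at 0 in every alternative run, and 7 to 8 of 9 pairs passed. A fixed slide block gave no value within HFD or for the difference.

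Of the 23 keratins recomputed under every alternative, Krt7 reversed with array weights (-0.09), a fixed slide block (-0.43) and within session 2 (-0.65), and Krt13 with the mean of its probes (-0.21). The other keratins were recomputed under 7 of them, and those that changed sign were not called in either fit: Krt85 (0.26), Krt9 (0.01) and Krt78 (0.39) with median centring, Krt78 also with array weights (0.28), a random slide block (0.05), in session 2 (0.46) and without HFD Late 4 (0.07), Krt71 with the session block (-0.23) and in session 1 (-1.43), Krt25 (-0.29) and Krt82 (-0.19) in session 1, and Krt2 (0.05) and Krt222 (0.06) in session 2. Krt23, Krt24 and Krt15 were called without each tumor in turn. Over the 21 other alternatives Krt23 lost its call in 1, the fixed slide block with its 1 late tumor. Krt24 lost its call in 6 and Krt15 and Krt19 in 7 each (adjusted p up to 0.442 for Krt19). Among the other called keratins, Krt79 lost its call in 4, Krt42 in 8, Krt83 in 9, Krt74 in 10 and Krt31 and Krt81 in 11 each.

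No paired analysis was possible because the labels number no replicates across groups. The pairs without HFD Late 4 were added after the data were seen.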
